A study of Mus musculus with 18 samples.

Results

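The 9 genes described here encode the angiotensin and endothelin systems of the heart: Agt, Ace, Agtr1a, Agtr2 and Nr3c2 for angiotensin and its downstream steroid receptor, and Edn1, Ece1, Ednra and Ednrb for endothelin. They were taken by symbol from the 24479 features of the deposited array table. The table paired 8 of the 9 with a symbol through the platform annotation, and Ednra was found through its Entrez gene number, 13617, in the RefSeq gene table. RNA of left ventricular myocardium was measured on 18 arrays in 6 groups of 3: DKO and FFFF mice after sham surgery, 1 day after ischemia/reperfusion (I/R) injury and 5 days after I/R injury. In I/R hearts the tissue was the ischemic area of the left ventricle after ligation and release of the left anterior descending artery, while in sham hearts it was left ventricular myocardium. DKO mice are the CaMKII delta/gamma double-knockout animals, with floxed Camk2d and Camk2g and a Cre transgene under the cardiomyocyte-specific α-MHC promoter, so that other cardiac cells keep both kinases. FFFF mice carry the same floxed alleles without Cre and are the noCre animals that the labels call wild-type. All mice were adults of a mixed 129/Sv and C57BL/6 background. Nothing in the sources used here says how the arrays relate to animals beyond their replicate numbers, so p-values measure the spread between these arrays.

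Angiotensinogen, the product of Agt, is cleaved by renin and then by angiotensin-converting enzyme, the product of Ace, to angiotensin II, which raises blood pressure and drives growth and fibrosis of the injured heart. Angiotensin II acts mainly through the G protein-coupled type 1 receptor, which mice encode in Agtr1a and its close paralog Agtr1b, and the type 2 receptor encoded by Agtr2 is known mostly from fetal tissue. It also stimulates release of aldosterone, which binds the mineralocorticoid receptor encoded by Nr3c2. Endothelin-1, a vasoconstrictor peptide made mainly by endothelial cells, is encoded as a precursor by Edn1, is processed by endothelin-converting enzyme (Ece1) and binds the receptors encoded by Ednra and Ednrb.

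In RefSeq annotation of build GRCm38.p6, Agt (chr8:124556587-124569706), Nr3c2 (chr8:76898083-77245012) and Ednra (chr8:77663029-77724452) share a chromosome, as do Agtr1a (chr13:30336356-30382867) and Edn1 (chr13:42301476-42307990). Ace lies at chr11:105967948-105989964, Ednrb at chr14:103814615-103844508, Ece1 at chr4:137862237-137965229 and Agtr2 at chrX:21484624-21488833. Ace, Agtr1a, Nr3c2 and Ednrb were the genes that passed the test in some comparison of I/R with sham hearts. RefSeq promoter entries were found for 8 of the 9 genes, all but Agtr1a. The 250 bases before the listed start are shown for Ace, Nr3c2 and Ednrb, so that the base composition and short motifs of genes that rose and of 1 that fell can be compared. They are of the same build and read in the direction of the gene. Capitals mark matches, on either strand, to any of 6 motifs: TGANTCA for AP-1, AGAACA for a corticoid receptor half-site, AGATAA for GATA factors, ACGTG for the core of a hypoxia element, GGGCGG for a GC box and TATAAA for a TATA box.
Ace, chr11:105967698-105967947, plus strand: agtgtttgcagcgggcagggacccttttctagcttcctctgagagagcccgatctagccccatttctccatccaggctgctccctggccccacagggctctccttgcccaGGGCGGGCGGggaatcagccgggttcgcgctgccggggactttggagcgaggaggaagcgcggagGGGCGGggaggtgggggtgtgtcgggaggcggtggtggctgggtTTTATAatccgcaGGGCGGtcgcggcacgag
Nr3c2, chr8:76902080-76902329, plus strand: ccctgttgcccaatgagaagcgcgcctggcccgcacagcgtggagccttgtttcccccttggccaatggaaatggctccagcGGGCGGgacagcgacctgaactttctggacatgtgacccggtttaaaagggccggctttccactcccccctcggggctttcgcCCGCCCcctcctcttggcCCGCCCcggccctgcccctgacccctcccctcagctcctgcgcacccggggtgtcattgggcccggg
Ednrb, chr14:103843702-103843951, minus strand: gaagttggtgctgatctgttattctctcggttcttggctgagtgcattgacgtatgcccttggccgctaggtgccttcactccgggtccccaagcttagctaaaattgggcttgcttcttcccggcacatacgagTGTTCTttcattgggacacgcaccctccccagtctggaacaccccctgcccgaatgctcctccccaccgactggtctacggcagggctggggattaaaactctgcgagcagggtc

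The Ace window was 67.2% G or C and held 4 GC boxes, of which 2 share bases, and 1 TATA box on the reverse strand, 31 bases before the start. A second listed Ace start, whose window is chr11:105974939-105975188, held none of the 6 motifs. The Nr3c2 window was 68.4% G or C and held 3 GC boxes. The Ednrb window was 56.8% G or C and held 1 corticoid half-site on the reverse strand. Among 32841 windows of the same length, 32.7% held a GC box, 12.4% a TATA box and 16.1% a corticoid half-site. The array has 1 feature per gene, so the values below are not tied to a start.

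Values below are log2 intensities, so that a difference of 1 is a doubling, and levels are compared only within a gene. Features for 1335 olfactory and vomeronasal receptor genes, which a heart is not known to use, gave a background: their 95th percentile lay between 4.43 and 4.6 over the arrays. Of the 9 genes, 8 lay above that percentile in all 18 arrays. Agtr2 lay below it in all 18, at 3.80 to 4.09, and no level or difference of Agtr2 could be measured here. All 12 cardiomyocyte markers were above the background in every group, and of 5 atrial markers 3 (Myl7, Sln and Bmp10) were not, while 2 (Myl4 and Nr2f1) were. Camk2d and Camk2g were lower in each DKO array than in each FFFF array of sham hearts and of hearts 5 days after I/R. The array labelled as DKO replicate 1 at 1 day was different. Its Camk2d was 9.71, against 7.90 and 8.31 in the other DKO arrays and 9.59 to 9.83 in the FFFF arrays of that day, and its Camk2g was 7.10, against 5.99 and 6.21 in the other DKO arrays and 7.004 to 7.37 in the FFFF arrays. Its values are therefore named, and the differences of the 9 genes that rest on it are also given with it left out of the model. By Xist and Y-linked transcripts, replicates 1 and 2 at 5 days were male in both genotypes and the other 14 arrays were female.

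**Figure D1:**
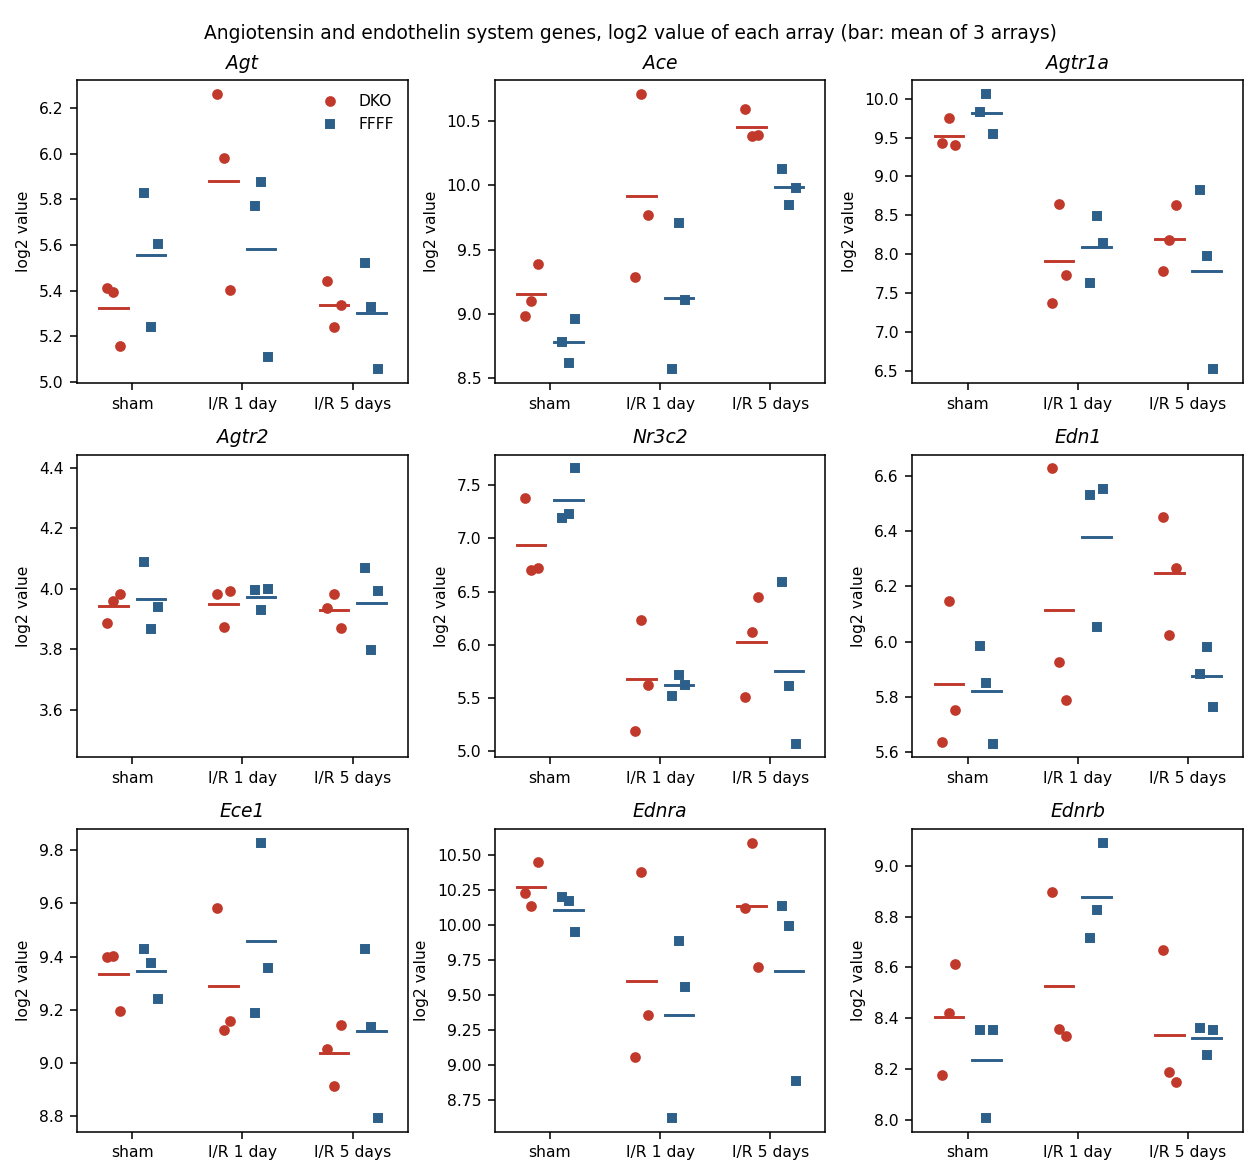
Each panel plots the log2 value of 1 gene (y axis, scale set per gene) by stage (x axis), with 1 point per array, DKO as circles left of FFFF as squares, and bars at the mean of 3 arrays. Agtr1a and Nr3c2 lie lower in I/R than in sham hearts, Ace lies higher 5 days after I/R, and Agtr2 stays between 3.80 and 4.09.

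Agt, the precursor of all angiotensins, moved little in the ventricle. DKO arrays had 5.41, 5.40 and 5.16 in sham hearts, 6.26, 5.98 and 5.40 at 1 day and 5.44, 5.24 and 5.34 at 5 days (replicates 1, 2 and 3). FFFF arrays had 5.83, 5.24 and 5.60, then 5.77, 5.88 and 5.11, and then 5.52, 5.33 and 5.06 at the same stages. The highest value was that of the array labelled as DKO replicate 1 at 1 day, and all neighbouring groups overlapped. The largest difference from sham, 0.56 in DKO at 1 day (95% interval 0.07 to 1.05), did not pass the test (limma, adjusted p = 0.17) and was 0.37 without that array (adjusted p = 0.51).

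Ace, which makes angiotensin II and also breaks down bradykinin, rose 5 days after I/R in both genotypes. In DKO arrays its log2 values were 8.99, 9.10 and 9.38 in sham hearts, 9.29, 10.71 and 9.77 at 1 day and 10.59, 10.38 and 10.39 at 5 days. In FFFF arrays they were 8.78, 8.62 and 8.96 in sham hearts, 8.57, 9.71 and 9.11 at 1 day and 10.13, 9.84 and 9.98 at 5 days. At 5 days each I/R array lay above each sham array of its genotype, whereas at 1 day the groups overlapped, with replicate 2 highest in both genotypes. The 5-day value was 2.46-fold that of sham in DKO (log2 difference 1.3, SE 0.304, limma adjusted p = 0.027) and 2.30-fold in FFFF (1.20, SE 0.304, adjusted p = 0.015). In tissue RNA, a change in the number of cells of a type and a change in RNA per cell cannot be told apart. At 1 day the difference was 0.76 in DKO (adjusted p = 0.16; 1.08 and 0.10 without the array labelled replicate 1) and 0.34 in FFFF (adjusted p = 0.56). The 5-day rise did not pass the test once sex was in the model (1.26 in DKO, adjusted p = 0.091, and 1.17 in FFFF, adjusted p = 0.060). Among female arrays alone the differences were 1.24 in DKO and 1.19 in FFFF (adjusted p = 0.34 and 0.14). By gene-wise analysis of variance the 5-day call in DKO was lost. The call was also lost in DKO without sham replicate 1 or 2 or 5-day replicate 1 or 2 (1.21 to 1.33, adjusted p = 0.073 to 0.12), and in FFFF without sham replicate 2 or 5-day replicate 3 (1.12 and 1.20, adjusted p = 0.061 and 0.054).

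Agtr1a, the main receptor of angiotensin II in the rodent heart, was lower in every I/R array than in every sham array of its genotype. DKO arrays had 9.43, 9.75 and 9.40 in sham hearts, 7.38, 8.64 and 7.73 at 1 day and 7.78, 8.19 and 8.64 at 5 days. FFFF arrays had 9.83, 10.06 and 9.55 in sham hearts, 7.62, 8.50 and 8.14 at 1 day and 8.83, 7.98 and 6.52 at 5 days. The widest spread was among the FFFF arrays at 5 days (SD 1.17, n = 3). Agtr1a fell in FFFF hearts at both times, to a level 3.31-fold below sham at 1 day (log2 difference -1.73, SE 0.468, limma adjusted p = 0.031) and 4.10-fold below at 5 days (-2.04, SE 0.468, adjusted p = 0.0097). In DKO hearts the differences were -1.61 (95% interval -2.62 to -0.61, adjusted p = 0.062) at 1 day and -1.33 (-2.33 to -0.32, adjusted p = 0.10) at 5 days. Without the array labelled as DKO replicate 1 at 1 day, the lowest of its group, the 1-day difference was -1.34 (adjusted p = 0.23), and without the highest, replicate 2, it was -1.97 and passed (adjusted p = 0.018). The FFFF call at 1 day was lost without any 1 of the sham arrays or 1-day replicate 1 or 3 (-1.86 to -1.49, adjusted p = 0.060 to 0.14), whereas the call at 5 days held with each array left out, at -1.41 without 5-day replicate 3, the lowest (adjusted p = 0.038). In the fit of the compared groups alone the 5-day difference did not pass (adjusted p = 0.090). The FFFF call at 1 day was also lost by gene-wise analysis of variance. The paralog Agtr1b stayed at background values (3.95 to 4.22 in all arrays). Probes of close paralogs can share signal, and whether they did was not tested.

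Nr3c2, the mineralocorticoid receptor, was likewise lower after I/R. DKO arrays had 7.38, 6.71 and 6.72 in sham hearts, 5.19, 6.23 and 5.62 at 1 day and 5.51, 6.12 and 6.45 at 5 days. FFFF arrays had 7.19, 7.23 and 7.66 in sham hearts, 5.52, 5.71 and 5.63 at 1 day and 6.59, 5.61 and 5.07 at 5 days. Again every I/R array lay below every sham array of its genotype, and in the order of the 6 group means only the gap between the sham and the I/R groups was free of overlap. Nr3c2 fell in FFFF hearts, to 3.34-fold below sham at 1 day (log2 difference -1.74, SE 0.357, limma adjusted p = 0.010) and 3.04-fold below at 5 days (-1.60, SE 0.357, adjusted p = 0.0083). In DKO hearts it was 1.26 lower on the log2 scale at 1 day (difference -1.26, adjusted p = 0.058) and 0.91 lower at 5 days (difference -0.91, adjusted p = 0.14). The 1-day difference in DKO was -1.01 (adjusted p = 0.23) without the array labelled replicate 1, and -1.53 (adjusted p = 0.017) without replicate 2. In FFFF the 1-day call was lost without 1-day replicate 1 (-1.69, adjusted p = 0.050), and the 5-day call in the fit of the compared groups alone (adjusted p = 0.071).

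The cardiomyocyte markers of the same arrays were also lower after I/R, and within each of the 4 I/R groups the 3 arrays had the same order by marker mean, by Agtr1a and by Nr3c2. The mean of the 12 markers (Myh6, Tnnt2, Ryr2 and others, all above background) was 12.91 to 12.95 in DKO sham hearts and 12.91 to 13 in FFFF sham hearts. It was 12.39 to 12.74 in DKO and 12.17 to 12.71 in FFFF at 1 day, and 12.19 to 12.65 in DKO and 11.83 to 12.83 in FFFF at 5 days. In FFFF hearts at 5 days the mean was 12.83, 12.25 and 11.83 in replicates 1, 2 and 3. With this mean as a covariate, the FFFF difference from sham was -0.70 at 1 day and -0.67 at 5 days for Agtr1a (adjusted p = 0.17 and 0.28). For Nr3c2 it was -1.01 at 1 day, which still passed the test (adjusted p = 0.044), and -0.63 at 5 days (adjusted p = 0.30). In DKO hearts the differences from sham in this fit were -0.73 and -0.28 for Agtr1a, and -0.63 and -0.17 for Nr3c2, at 1 and 5 days. For Ace the 5-day difference in this fit was 1.66 in DKO and 1.68 in FFFF (adjusted p = 0.035 and 0.038). Over all features this fit called 416 in FFFF at 1 day and 324 at 5 days, against 2870 and 4475 without the covariate. In DKO it called 295 and 155, against 1252 and 1487. The part of cardiomyocytes in the values of these genes was not tested.

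**Figure D2:**
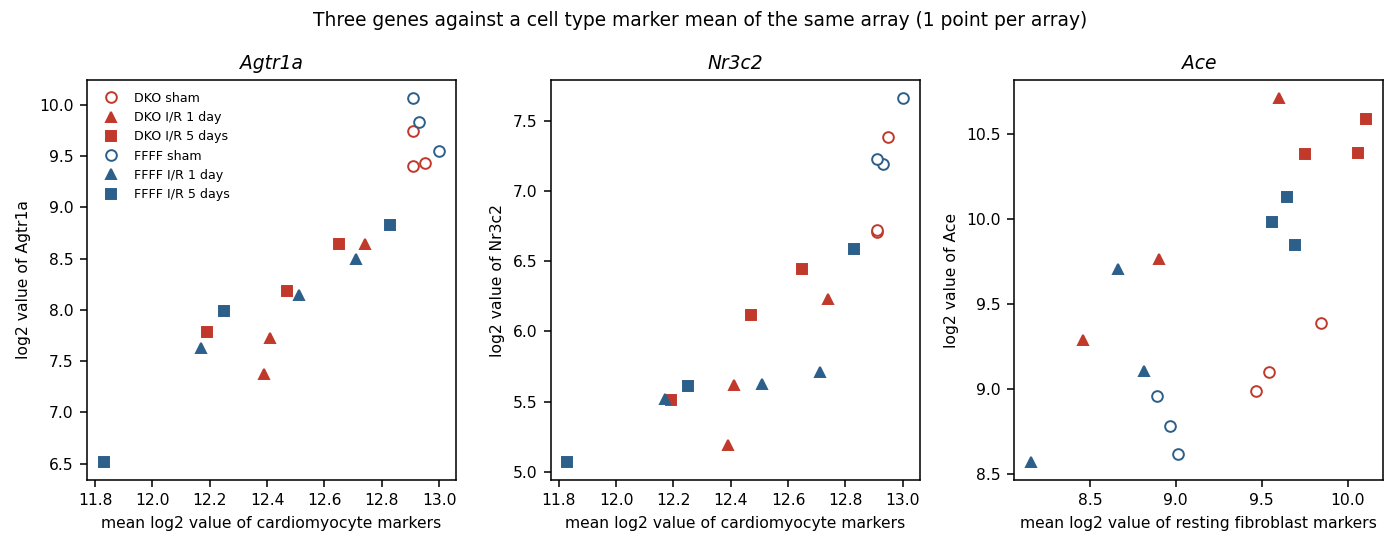
The panels plot the log2 value of Agtr1a, Nr3c2 and Ace (y axes) against the mean log2 value of cardiomyocyte markers (left and middle) or resting fibroblast markers (right) in the same array, with 1 point per array. The lowest cardiomyocyte mean, 11.83, belongs to the FFFF 5-day array with the lowest Agtr1a (6.52) and the lowest Nr3c2 (5.07), and the sham arrays lie at 12.91 or above.

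By the root mean square difference over the 18 arrays, after each gene's own mean was taken off, the genes most like Agtr1a were Aldh5a1 (0.243), Cdnf (0.246) and Osbp2 (0.249), where the SD of Agtr1a over the arrays was 0.948. Those most like Nr3c2 (SD 0.774) were Slc25a13 (0.221), Lmod3 (0.230) and Erbb4 (0.230). Lmod3 is an actin filament nucleator of striated muscle, and Erbb4 is a neuregulin receptor of cardiomyocytes. Those most like Ace (SD 0.670) included Lpar1 (0.292), a lysophosphatidic acid receptor, and Dnm1 (0.293), a dynamin.

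Edn1, the endothelin-1 precursor, lay highest in FFFF hearts at 1 day and in DKO hearts at 5 days, with no difference past the threshold. DKO arrays had 5.64, 6.15 and 5.75 in sham hearts, 6.63, 5.93 and 5.79 at 1 day and 6.45, 6.03 and 6.27 at 5 days. FFFF arrays had 5.99, 5.85 and 5.63 in sham hearts, 6.53, 6.05 and 6.55 at 1 day and 5.88, 5.98 and 5.76 at 5 days. Every FFFF array at 1 day lay above every FFFF sham array (log2 difference 0.56, 95% interval 0.11 to 1.01, limma adjusted p = 0.10) and above every FFFF array at 5 days (5 days minus 1 day, -0.50, adjusted p = 0.20). The difference from sham passed the test once the array labelled as DKO replicate 1 at 1 day (adjusted p = 0.041) or FFFF replicate 2 at 1 day (0.72, adjusted p = 0.047) was left out of the model. In DKO hearts the highest 1-day value, 6.63, was that of the array labelled replicate 1, and the difference from sham was 0.27 with it and 0.01 without it.

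Ece1, the protease that releases endothelin-1, varied least among the 8 genes above background, with a span of 0.42 between the highest and lowest group mean. Its values were 8.92 to 9.58 in DKO arrays and 8.79 to 9.83 in FFFF arrays over all stages. At 5 days each DKO I/R array (9.05, 8.92 and 9.14) lay below each DKO sham array (9.40, 9.40 and 9.20), a difference of -0.30 that did not pass the test (95% interval -0.67 to 0.08, limma adjusted p = 0.36). In FFFF hearts the corresponding difference was -0.23 (adjusted p = 0.45) and the arrays overlapped.

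Ednra, the endothelin receptor of smooth muscle and cardiomyocytes, spread widely 1 day after I/R. DKO arrays had 10.23, 10.14 and 10.45 in sham hearts, 9.06, 10.38 and 9.36 at 1 day and 10.12, 10.59 and 9.71 at 5 days. FFFF arrays had 10.20, 10.17 and 9.95 in sham hearts, 8.62, 9.88 and 9.56 at 1 day and 10.14, 9.99 and 8.89 at 5 days. At 1 day replicate 2 was the highest and replicate 1 the lowest in both genotypes, and each FFFF array lay below each FFFF sham array. The differences from sham at 1 day were -0.67 in DKO (adjusted p = 0.35; -0.40 and 0.72 without the array labelled replicate 1) and -0.75 in FFFF (adjusted p = 0.26), and at 5 days -0.14 and -0.43, none of which passed the test.

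Ednrb, the endothelin receptor best known from endothelial cells, where it also clears the peptide, rose 1 day after I/R in FFFF hearts. FFFF arrays at 1 day had 8.71, 8.83 and 9.09, against 8.35, 8.01 and 8.35 in FFFF sham hearts, with no overlap. The level was 1.56-fold that of sham (log2 difference 0.64, SE 0.177, limma adjusted p = 0.033), and at 5 days the FFFF values were 8.36, 8.26 and 8.35. The call was lost without any 1 FFFF sham array or without FFFF replicate 1 or 3 at 1 day (0.53 to 0.72, adjusted p = 0.061 to 0.13). It was also lost by gene-wise analysis of variance and with the cardiomyocyte marker mean as a covariate. In DKO hearts the values were 8.18, 8.42 and 8.62 after sham surgery, 8.90, 8.36 and 8.33 at 1 day and 8.67, 8.19 and 8.15 at 5 days. The DKO difference at 1 day was 0.12 (adjusted p = 0.75) and -0.06 without the array labelled replicate 1, which alone reached the FFFF range of that day. The test of the difference between the genotypes' responses gave -0.52 (95% interval -1.05 to 0.02, unadjusted p = 0.058, adjusted p = 1), and -0.70 without that array (adjusted p = 0.77). The 12 endothelial markers were above background in every group, and their mean was 8.54 to 9.0 in DKO and 8.93 to 9.28 in FFFF hearts at 1 day, and 9.27 to 9.42 in DKO and 9.20 to 9.26 in FFFF sham hearts. The mean of the 11 neutrophil markers at 1 day was 6.52, 4.34 and 4.95 in DKO and 6.42, 5.77 and 6.32 in FFFF arrays, with 7 and 8 of the 11 above background, and 4.21 to 4.34 in sham hearts, with 2 of 11. Ednrb, Edn1 and this list were each highest in the same DKO array at 1 day, labelled replicate 1. The part of leukocytes in these values was not tested.

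**Figure D3:**
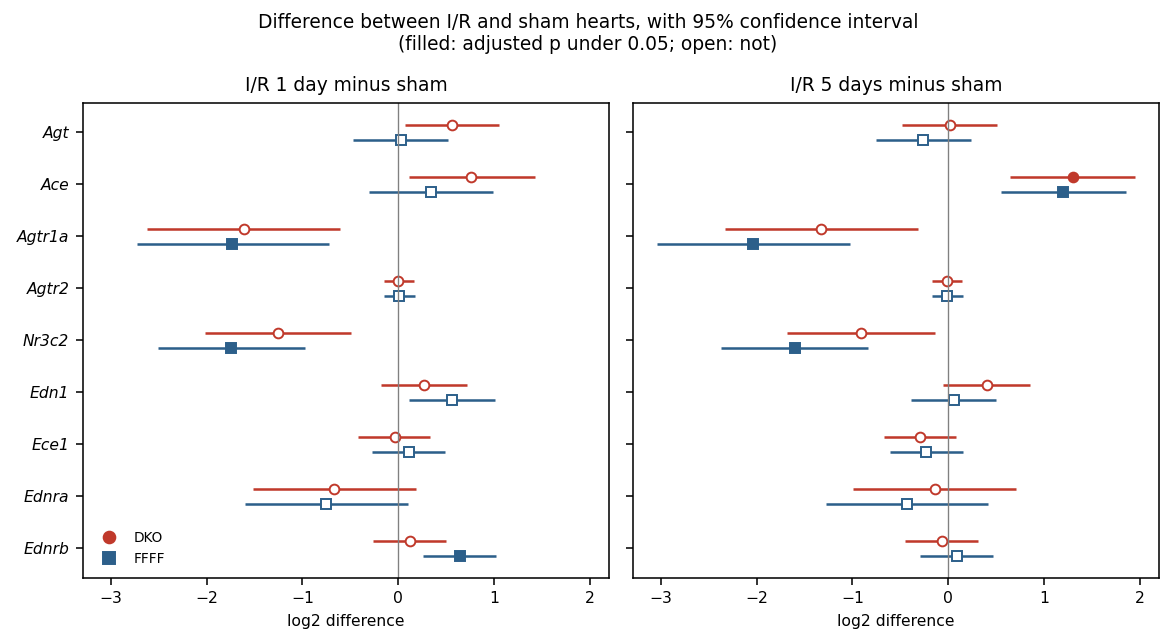
Points are the log2 difference between I/R and sham hearts for the 9 genes at 1 day (left) and 5 days (right), with DKO as circles above FFFF as squares and lines for 95% confidence intervals. Filled points passed the test: Agtr1a, Nr3c2 and Ednrb in FFFF at 1 day, Ace in both genotypes at 5 days, and Agtr1a and Nr3c2 in FFFF at 5 days.

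The comparisons at 1 day and 5 days share their sham arrays. Counted over the 9 genes, 0 passed in DKO hearts at 1 day against 5.11% of all features (limma). At an unadjusted p under 0.05 there were 4 of the 9, against 5403 of all 24479 features. By gene-wise analysis of variance 0 of the 9 passed, against 610 features. In FFFF hearts at 1 day 3 of the 9 passed, against 11.7% of all features. At 5 days 1 of the 9 passed in DKO, against 6.07%, and 3 of the 9 in FFFF, against 18.3%. The ranges of I/R and sham arrays did not overlap for 2 of the 9 genes in DKO and 5 in FFFF at 1 day, where 23.7% and 33.8% of all features did not overlap. At 5 days the same held for 4 of the 9 in DKO and 3 in FFFF, where 33.0% and 33.2% did. The median difference over the 9 genes was 0.00 in DKO and 0.03 in FFFF at 1 day, and -0.07 in DKO and -0.23 in FFFF at 5 days, against medians within 0.02 of 0 over all features. Between 1 and 5 days 0 of the 9 passed in either genotype, where 4.59% of all features passed in DKO and 6.25% in FFFF. At an unadjusted p under 0.05 there were 1 of the 9 in DKO and 3 in FFFF, against 4732 and 4675 features. By gene-wise analysis of variance 0 of the 9 passed in each, against 691 and 1029 features. Ranges were free of overlap between these times for 0 of the 9 genes in DKO, against 22.6% of all features, and for 3 of the 9 in FFFF (Ace, Edn1 and Ednrb), against 20.7%. In DKO, Agtr1a and Nr3c2 passed at 1 day when the variance was let follow the intensity, with array weights, with a filter on dim features, or without DKO replicate 2 at 1 day.

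The study asked what the loss of CaMKII in cardiomyocytes changes after I/R, and no difference between DKO and FFFF hearts passed the test for any of the 9 genes. The share of all features that passed was 0.00817% in sham hearts and 0% at both 1 day and 5 days (1459, 1639 and 590 features at an unadjusted p under 0.05). Of the 9 genes, 0, 1 and 0 had an unadjusted p under 0.05 at these stages, and 0 passed by gene-wise analysis of variance. The 1 gene was Ace at 1 day. The difference of the I/R response between the genotypes was also called for 0 of the 9 genes, with 0 at an unadjusted p under 0.05, at 1 day (0.00409% of all features) and at 5 days (0%).

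Ace had a higher mean in DKO than in FFFF hearts at each stage, as had Ednra, and none of these differences passed the test. DKO values lay above all FFFF values in sham hearts (8.99, 9.10 and 9.38 against 8.78, 8.62 and 8.96) and at 5 days (10.59, 10.38 and 10.39 against 10.13, 9.84 and 9.98). Ranges free of overlap were found in 15.5% of all features in sham hearts and 7.56% at 5 days. At 1 day the ranges of DKO and FFFF overlapped for all 9 genes, where 9.82% of all features did not overlap. By replicate number, Ace in the DKO array lay above that in the FFFF array by 0.71, 1.00 and 0.66. No label pairs these arrays, and the array labelled as DKO replicate 1 had Camk2d and Camk2g in the FFFF range. The DKO minus FFFF difference was 0.37 in sham hearts (95% interval -0.28 to 1.02, limma adjusted p = 0.98), 0.79 at 1 day (0.14 to 1.44, adjusted p = 0.68) and 0.47 at 5 days (-0.19 to 1.12, adjusted p = 1). The 1-day difference was 1.11 without the array labelled replicate 1 (adjusted p = 0.26), and 0.79 with the replicate number as a block in a fit of that day alone (adjusted p = 0.50). The I/R response of Ace did not differ measurably, by 0.42 (-0.50 to 1.35) at 1 day, where it was 0.74 without that array (adjusted p = 0.89), and 0.10 (-0.83 to 1.02) at 5 days. Resting fibroblast markers (Pdgfra, Tcf21, Dcn and others, 11 of 11 above background) had a mean of 9.47 to 9.85 in DKO and 8.89 to 9.01 in FFFF sham hearts, 8.46 to 9.60 and 8.16 to 8.82 at 1 day, and 9.75 to 10.11 and 9.56 to 9.69 at 5 days. They were thus also free of overlap in sham hearts and at 5 days. Means of other lists were free of overlap in sham hearts but not at 5 days. Endothelial (9.27 to 9.42 against 9.20 to 9.26), myofibroblast (7.73 to 8.07 against 7.05 to 7.10) and macrophage means (6.51 to 6.81 against 6.35 to 6.49) were higher in DKO. The mesothelial and epicardial mean was lower in DKO (4.74 to 4.79 against 4.86 to 4.88). The part of any of these lists in the Ace values was not tested.

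**Figure D4:**
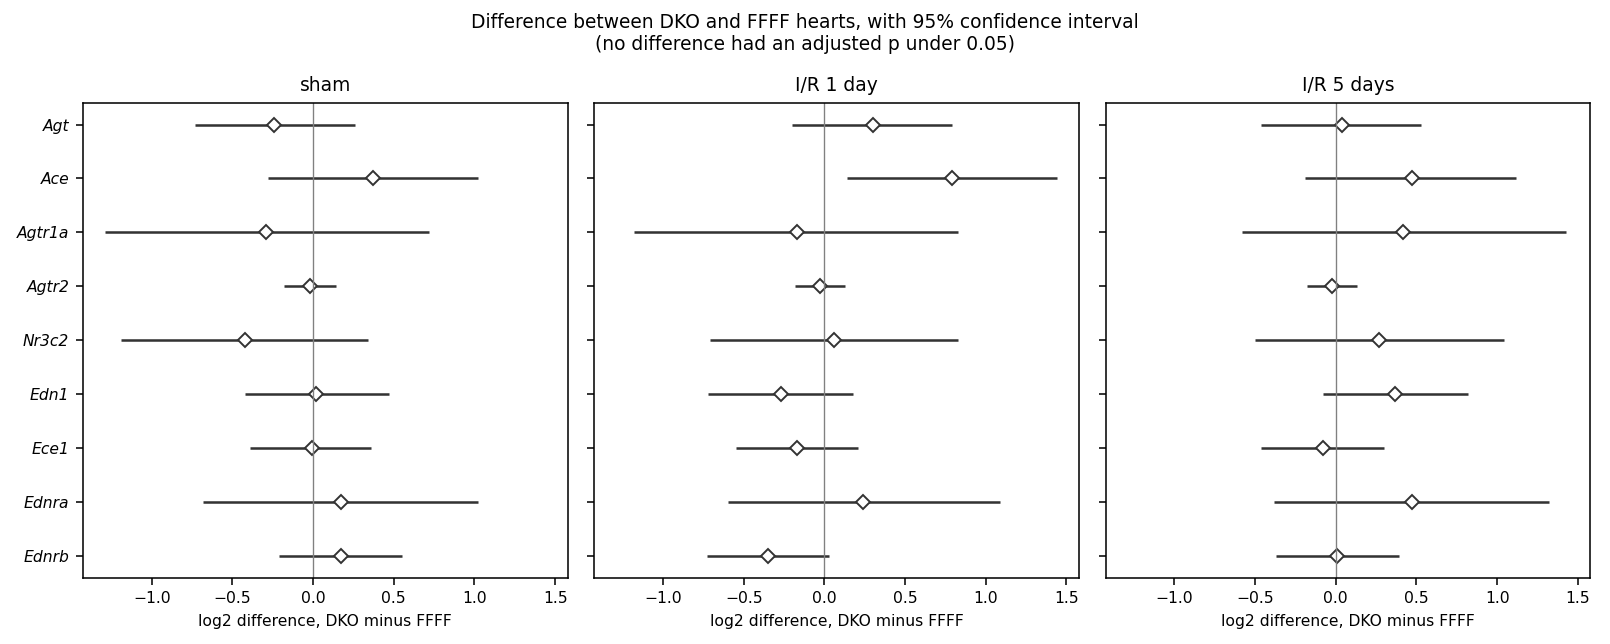
Points are the DKO minus FFFF difference in log2 value of the 9 genes in sham hearts and 1 and 5 days after I/R, with lines for 95% confidence intervals. Ace lies right of 0 at each stage (0.37, 0.79 and 0.47), and no point passed the test.

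Edn1 values at 5 days did not overlap between the genotypes, with 6.45, 6.03 and 6.27 in DKO and 5.88, 5.98 and 5.76 in FFFF arrays. The difference was 0.37 and did not pass the test (95% interval -0.08 to 0.82, limma adjusted p = 1). Of the 9 genes 2, Ace and Edn1, had ranges free of overlap there, against 7.56% of all features. For Agtr1a the response to I/R in DKO minus that in FFFF was 0.12 at 1 day (95% interval -1.31 to 1.54) and 0.71 at 5 days (-0.71 to 2.13), and for Nr3c2 it was 0.48 (-0.60 to 1.57) and 0.69 (-0.39 to 1.78). Without the array labelled as DKO replicate 1 at 1 day the 1-day values were 0.38 and 0.73. Without FFFF replicate 3 at 5 days the 5-day values were 0.08 for Agtr1a and 0.35 for Nr3c2. These intervals hold 0 as well as differences of more than 1, so that calls in FFFF and not in DKO do not show unequal responses. The intervals of Ednra (-1.12 to 1.28 at 1 day and -0.90 to 1.5 at 5 days) were as wide, and those of Ece1 narrower (-0.69 to 0.38 and -0.60 to 0.47). Their 1-day values were 0.08 and -0.15 with, and 0.35 and -0.30 without, the array labelled replicate 1.

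Of 29 further genes of the renin-angiotensin-aldosterone system, 0 passed in DKO at 1 day, 2 fell in FFFF at 1 day, 2 rose in DKO at 5 days, and in FFFF at 5 days 6 rose and 2 fell. Over all features 5.11%, 11.7%, 6.07% and 18.3% passed in the same 4 comparisons. Without FFFF replicate 3 at 5 days, 4 rose and 0 fell in FFFF at 5 days, where 1942 of all features passed in place of 4475. The median difference of the 29 was between -0.05 and 0.03 in these comparisons. Prcp, a carboxypeptidase that trims angiotensin II, had 10.10, 9.74 and 8.86 in DKO at 5 days against 8.29, 8.19 and 7.83 in DKO sham hearts, and 9.35, 10.09 and 10.26 in FFFF at 5 days against 7.67, 8.22 and 7.45 in FFFF sham hearts. It rose by 1.46 in DKO (limma adjusted p = 0.024) and 2.12 in FFFF (adjusted p = 0.0016), with no overlap in either. Ctsa, the lysosomal carboxypeptidase cathepsin A, rose by 0.65 in DKO (adjusted p = 0.041) and 0.86 in FFFF (adjusted p = 0.0050). Anpep, an aminopeptidase that shortens angiotensin III, rose by 2.47 in FFFF (adjusted p = 0.0037), and its difference in DKO was 1.44 (adjusted p = 0.077). Enpep, the aminopeptidase that makes angiotensin III, fell in FFFF at 1 day by 1.12 (adjusted p = 0.0099), to 6.17, 6.34 and 6.47 against 7.94, 7.46 and 6.94 in FFFF sham hearts. In DKO it was not called, with 6.35, 7.03 and 6.41 at 1 day against 7.49, 7.49 and 7.04 in sham hearts, also without overlap. The arrestins Arrb1 and Arrb2, which desensitise the type 1 receptor among many others, rose in FFFF at 5 days by 0.79 and 2.27 (adjusted p = 0.011 and 0.0077). Neither was called in DKO at 5 days. Arrb2 had 7.62, 7.45 and 7.26 there against 5.75, 5.62 and 5.66 in DKO sham hearts, without overlap. Arrb1 had 8.30, 8.08 and 8.70 against 7.97, 8.06 and 8.11, with overlap. Monocyte and macrophage markers, 11 of 11 measured above background, had a mean of 8.63 to 9.21 in DKO and 8.11 to 10.16 in FFFF hearts at 5 days, and 6.51 to 6.81 and 6.35 to 6.49 in sham hearts. Their part in these rises was not tested.

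Genes for renin, a further angiotensin receptor and aldosterone synthase gave little signal. Ren1, which encodes renin, stayed between 3.86 and 4.28 over all arrays, and Mas1, the receptor for angiotensin 1-7, between 3.83 and 4.24. Cyp11b2, the aldosterone synthase, lay between 4.09 and 4.36. These values lie in the background range, and renin, aldosterone and circulating peptides made outside the heart are not seen by this measurement. Kinin genes, which encode the precursors, proteases and receptors of the peptide that Ace breaks down, were also mostly too dim to measure: Kng1, Kng2, Klk1, Bdkrb1 and Cpn1 lay between 3.66 and 4.52, so that no level or difference of these 5 could be measured. The other two, Bdkrb2 and Cpm, did not pass in any comparison of I/R with sham hearts.

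Of 9 further endothelin genes, 1 passed in FFFF at 5 days, where 18.3% of all features passed. None passed in FFFF at 1 day or in DKO at 1 or 5 days (11.7%, 5.11% and 6.07% of all features). The 1 gene was Plcb3, a phospholipase that couples to these receptors. It rose by 0.56 in FFFF at 5 days (limma adjusted p = 0.0079) to 7.03, 7.36 and 7.23 against 6.61, 6.58 and 6.74 in sham hearts. Edn3, another endothelin, lay between 4.88 and 5.71 in all arrays, and none of its differences from sham passed (smallest adjusted p = 0.41).

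Of 11 corticoid receptor targets, 2 rose in DKO and 1 in FFFF at 1 day, and 1 rose in DKO and 1 fell in FFFF at 5 days. The shares of all features that passed were 5.11% and 11.7% at 1 day and 6.07% and 18.3% at 5 days in DKO and FFFF. Fkbp5, a chaperone partner induced by corticoids, rose by 2.18 in DKO at 1 day (9.22, 8.83 and 8.60 against 6.12, 6.40 and 7.59 in sham hearts, limma adjusted p = 0.022). In FFFF it was not called, with 8.64, 9.66 and 8.56 at 1 day against 7.52, 7.25 and 8.28 in sham hearts, also without overlap. The 1-day means were 8.88 in DKO and 8.95 in FFFF, and the sham means 6.71 and 7.68. Lcn2, also made by neutrophils, rose by 4.94 in DKO and 4.59 in FFFF at 1 day (adjusted p = 0.0019 and 0.0020). Klf9, a transcription factor, fell by 1.54 in FFFF at 5 days (adjusted p = 0.032), and none of the 11 was called lower there without FFFF replicate 3. In DKO Klf9 was not called at 5 days, with 8.72, 9.03 and 9.48 against 10.14, 9.96 and 10.36 in sham hearts, without overlap. Nr3c1, the glucocorticoid receptor, fell by 0.40 in FFFF at 1 day (adjusted p = 0.047), and its difference in DKO was -0.43 (adjusted p = 0.056). Without the array labelled as DKO replicate 1 at 1 day, 1 of the 11 targets was called in DKO at 1 day in place of 2. Over all features 206 were then called there, in place of 1252. Without FFFF replicate 3 at 5 days, 1942 features were called in FFFF at 5 days, in place of 4475.

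The natriuretic peptides oppose angiotensin II and aldosterone, and 1 of their 8 genes, Nppa, was higher in DKO than in FFFF sham hearts. Over all features 2 (0.00817%) passed in that comparison, and 1 to 34 in other settings. The count was 1 by gene-wise analysis of variance, with the replicate block or with sex in the model. Whether Nppa passed in those settings is not reported here. Nppa, which encodes atrial natriuretic peptide, had 13.75, 13.68 and 13.68 in DKO and 12.80, 13.17 and 12.49 in FFFF sham hearts, and rose to 13.75 to 13.93 in FFFF hearts after I/R. The value of 13.93 is the highest an array can take after quantile normalization, so its rises from sham hearts are bounded in both genotypes. The DKO minus FFFF difference in sham hearts, 0.88, was the only one among the 76 further pathway genes to pass (limma adjusted p = 0.049). That test takes 1 spread from all 6 groups. The SD of Nppa was 0 in both 5-day groups and 0.101 in both 1-day groups, against 0.341 in FFFF sham hearts. Arrays at the upper limit thus lower the spread behind this p-value. Nppb, which encodes brain natriuretic peptide, rose by 1.29 in DKO and 2.46 in FFFF at 1 day (adjusted p = 0.025 and 0.00065), and by 1.40 in FFFF at 5 days (adjusted p = 0.0055). Without the array labelled as DKO replicate 1 at 1 day, 0 of the 8 natriuretic genes were called in DKO at 1 day, where Nppb was the 1 called with it. Over all features 206 were called there without that array and 1252 (5.11%) with it. Npr3, the clearance receptor, fell by 0.94 in FFFF at 5 days (adjusted p = 0.039), and no gene of the list was called lower there without FFFF replicate 3. Over all features 1942 were called there without that array and 4475 with it.

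Matrix and growth genes that angiotensin II is known to induce rose after I/R in both genotypes. Of 12, 4 rose in DKO and 8 in FFFF at 1 day, and 8 in DKO and 11 in FFFF at 5 days, and none fell. Of all features 5.11% and 11.7% passed at 1 day and 6.07% and 18.3% at 5 days in DKO and FFFF. Their median difference was 1.09 in DKO and 1.75 in FFFF at 1 day, and 2.89 and 2.96 at 5 days. Fn1, fibronectin, rose by 1.46 in DKO and 2.78 in FFFF at 1 day (limma adjusted p = 0.028 and 0.00087). It rose by 3.12 in DKO and 4.29 in FFFF at 5 days (adjusted p = 0.00047 and 3.1e-05). Its mean was 9.57 in DKO and 8.53 in FFFF sham hearts, 11.03 and 11.31 at 1 day, and 12.69 and 12.82 at 5 days. The smaller DKO rises thus started from a higher sham mean. Over the 12 genes the median DKO minus FFFF difference was 0.65 in sham hearts, 0.01 at 1 day and 0.06 at 5 days. Without the array labelled as DKO replicate 1 at 1 day, 1 of the 12 was called in DKO at 1 day in place of 4. Over all features 206 were called there without that array and 1252 with it. The myofibroblast list, which shares Postn, Col1a1, Col3a1 and Fn1 with these genes, had a mean of 10.57 to 11.09 in DKO and 10.17 to 11.38 in FFFF at 5 days, and 7.73 to 8.07 and 7.05 to 7.10 in sham hearts.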

How the data were processed

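The authors measured RNA on Affymetrix mouse gene 2.0 ST arrays and deposited log2 values per the file headers and methods: RMA after quantile normalization, with a custom chip definition file giving 1 feature for each Entrez gene, with no pooling of arrays. Quantile normalization gives all arrays one distribution, so values are relative within an array, and precision is limited by the number of arrays. Groups follow the labels. Differences are contrasts of 1 linear model of 6 groups with 12 residual degrees of freedom (R 4.3.3, limma 3.58.1, lmFit and eBayes), adjusted over all 24479 features after Benjamini and Hochberg, with calls at an adjusted p under 0.05. The method was tested on simulated data. The 9 genes and all lists were chosen with earlier results of these data known. All 9 genes are named. Of each further list the counts called are given with examples among its up to 6 genes of smallest adjusted p, and the rest of the named genes (Ren1, Mas1, Cyp11b2, Agtr1b, Nr3c1, Kng1) were added after their values were seen. Genes of like pattern are the 3 closest to each gene whose group means span 1 or more. A few genes that these rules name are not reported here. Alternatives were a variance trend, gene-wise analysis of variance (the test of the study), array weights, the compared groups alone, a filter keeping features above the 40th percentile in 3 arrays, median centring, the replicate block, sex and the cardiomyocyte mean as covariates and each array left out; the female arrays alone, the block at 1 day alone and the list counts without 3 arrays were added after the data were seen. At 1 day every same-numbered pair of DKO and FFFF arrays correlated by over 0.1 in its deviations from the group means, and on these values alone the numbers were treated as pairs at that day. Promoter sequences are from RefSeq, GRCm38.p6.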

Additional observations from a re-analysis of the deposited data

How the results depend on the processing

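No value changed direction with a call under any setting tried. Of the 99 differences of the 9 genes, 84 stayed on the same side of the threshold in every setting, and 30 of 2770 single repeats lost a call while 27 gained one. The number of the 9 genes called in DKO at 1 day was 2 in place of 0 with a variance trend, array weights, the filter on dim features or female arrays alone. In FFFF at 1 day it was 1 in place of 3 by gene-wise analysis of variance and with the cardiomyocyte mean as a covariate. In DKO at 5 days it was 0 in place of 1 by gene-wise analysis of variance, with sex as a covariate or in female arrays alone, 3 with array weights and 2 with the compared groups fitted alone. In FFFF at 5 days it was 1 in place of 3 with the compared groups alone or the cardiomyocyte covariate. From 1 to 5 days in FFFF it was 2 in place of 0 with array weights and 1 with that covariate. Counts over all features changed in the same settings. In DKO at 1 day 1157 were called with the variance trend, 2727 with array weights and 1666 with the filter, against 1252. In FFFF at 1 day 1887 were called by gene-wise analysis of variance and 416 with the cardiomyocyte covariate, against 2870. In DKO at 5 days, against 1487, gene-wise analysis of variance called 747 and the fit with sex 527. Array weights called 4528 there and the compared groups alone 3825. In FFFF at 5 days 1027 were called with the compared groups alone and 324 with the cardiomyocyte covariate, against 4475. From 1 to 5 days in FFFF 4335 were called with array weights and 2200 with that covariate, against 1531. The causes were not tested.

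With 1 array left out at a time, the number called ranged from 0 to 2 in DKO and from 0 to 4 in FFFF at 1 day, from 0 to 2 in DKO at 5 days, and from 0 to 1 between 1 and 5 days in each genotype. In DKO at 1 day 2 were called without DKO replicate 2 at 1 day or FFFF replicate 1 or 3 at 5 days. In FFFF at 1 day 0 were called without FFFF replicate 1 at 1 day, and 1 without FFFF replicate 3 at 1 day or any FFFF sham array, and 4, with Edn1 added, without DKO replicate 1 or FFFF replicate 2 at 1 day. In DKO at 5 days 0 were called without DKO sham replicate 1 or 2 or DKO replicate 1 or 2 at 5 days, and 2 without FFFF replicate 1 or 3 at 5 days. Between 1 and 5 days 1 gene was called in DKO without DKO replicate 2 at 1 day, and 1 in FFFF without DKO replicate 1 or 2 at 1 day. Counts over all features changed too. In DKO at 1 day 3349 were called without DKO replicate 2, against 1252. In FFFF at 1 day 617 were called without FFFF replicate 1. Without DKO replicate 1 or FFFF replicate 2 at 1 day 3141 and 3331 were called, against 2870. In DKO at 5 days 299, 225, 167 and 367 were called in the fits with 0 genes, in order, against 1487.

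The replicate block changed no call among the 9 genes: the count at 1 day stayed at 0 in DKO and 3 in FFFF, and pairing the arrays of 1 day alone left 0 genes different between the genotypes. Over all groups, the deviations of same-numbered arrays had a median correlation of -0.0045 (45 pairs), against -0.0082 for other pairs (90).

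Over all features, the count of calls was 112 to 3349 in DKO and 416 to 4942 in FFFF at 1 day, against 1252 and 2870 as reported, and 155 to 4528 in DKO and 324 to 8066 in FFFF at 5 days, against 1487 and 4475. Between the genotypes it was 1 to 34 in sham hearts, 0 to 15 at 1 day and 0 to 394 at 5 days, the last in female arrays alone, with 1 array per genotype at that day that is assumed to vary like the others. Depth does not apply to arrays, and Agtr2, below background in every array, gave no measurable level.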
